A study of Mus musculus with 24 samples.

Results

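The Wnt genes described here are the secreted Wnt ligands, their Frizzled receptors, the other surface proteins that bind Wnt, and the proteins that carry the beta-catenin signal to the nucleus. They were chosen by name: every gene whose symbol is Wnt or Fzd followed by a number, together with Lrp5, Lrp6, Ror1, Ror2, Ryk, Axin2, Lef1, Tcf7, Tcf7l1, Tcf7l2 and Ctnnb1. Of these 40 genes, 39 were measured by a probe set that names 1 gene, among 19351 such genes: 19 ligands, 10 Frizzled receptors, 5 further receptors and 5 effectors. Tcf7 was not analysed here. The samples came from C57BL/6J mouse embryos, and the labels name no treatment. Pleuroperitoneal fold, the ridge of mesenchyme from which the diaphragm grows, was taken at E11.5 (8 arrays) and at E12.5 (8 arrays), and diaphragm at E16.5 (8 arrays). The tissue was captured with a laser from frozen sections, transverse for the folds and sagittal for E16.5, so that stage and plane of section cannot be told apart between them. The labels do not name the embryo behind each sample, and the p-values therefore measure the spread between these samples, which may in part be technical. Values are log2 intensities on 1 array per sample, on which a difference of 1 is a 2-fold change, and n = 8 arrays per stage.

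Wnt proteins are lipid-modified signals that act over short distances. At the cell surface they bind a Frizzled receptor together with the co-receptor Lrp5 or Lrp6, and this stops a cytoplasmic complex around Axin from marking beta-catenin for breakdown. Beta-catenin then enters the nucleus and turns on genes with Tcf and Lef factors, Axin2 among them. Ror1, Ror2 and Ryk receive Wnt signals, Wnt5a in particular, in branches that do not use beta-catenin and that steer cell polarity and movement. In the embryo Wnt signals help to specify muscle precursors and to pattern the mesenchyme around them.

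Array medians over genes lay between 7.45 and 7.57 and lower quartiles between 6.40 and 6.64; a signal below its array's lower quartile is not told from background here. The mean of 12 skeletal muscle markers was 8.05 to 9.28 in E11.5 folds, 8.27 to 11.17 in E12.5 folds (highest in replicate 3) and 11.73 to 12.16 in E16.5 diaphragm. The mean of 12 markers of fold and connective tissue mesenchyme was 9.02 to 9.65, 9.08 to 9.59 and 8.78 to 9.05 in that order. Markers of liver, which lies next to the diaphragm, were also high in some samples: the mean of 9 hepatocyte markers was 6.78 to 7.12, 7.80 to 12.18 (highest in replicate 2) and 9.86 to 12.12. Of 10 lung epithelium markers 2 were higher at E16.5 than at E12.5, Sftpc (log2 change 4.8) and Cdh1 (0.4), 1 lower and 7 not called. Of 8 heart muscle markers 2 were higher, Myl2 (4.94) and Myh6 (0.71), 0 lower and 6 not called. At E16.5, replicates 1 to 4 stood apart from replicates 5 to 8 in several marker lists. Counts are therefore also given without E12.5 replicates 2 and 3 and without each of these E16.5 sets.

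From E11.5 to E12.5 no change in a Wnt gene passed the test. With limma, 0 of 39 genes had an adjusted p under 0.05, where 0.388% of all genes did (0.331% higher and 0.0568% lower, or 64 and 11 genes; 33 and 31 when arrays were centred on the 75th percentile, and 52 and 31 when centred on the median). The count was also 0 in every alternative other than leaving out single arrays. At an unadjusted p under 0.05, 2 of the 39 were higher and 5 lower, where 14.4% of all genes passed in either direction. This split moved with the scaling: 0 were higher and 13 lower when arrays were centred on the 75th percentile, 1 and 12 when centred on the median, and 1 and 10 after quantile normalization. The median log2 change of the 39 was -0.09, against -0.03 over all genes; centred on the 75th percentile these medians were -0.16 and -0.10. The 95% intervals of the 39 differences together ran from -1.02 to 0.67.

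Wnt5a, a ligand of the branches without beta-catenin, had the largest of these differences. Its lowest, median and highest values were 6.76, 7.40 and 7.69 in E12.5 folds, against 7.09, 8.04 and 8.87 in E11.5 folds. The stages overlapped, and the difference was -0.65 ± 0.18 (SE, adjusted p = 0.121). Without E11.5 replicate 3, at 7.09 the lowest of its stage, the difference was -0.77 and passed (adjusted p = 0.0414).

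From E12.5 to E16.5, 16 of the 39 genes passed, 13 lower and 3 higher in E16.5 diaphragm. Over all genes 27.1% passed, 15.6% lower and 2223 of the 19351 higher. The median log2 change of the 39 was -0.14, against -0.02 over all genes. Centred on the 75th percentile these medians were -0.088 and 0.025, and the calls were 12 (9 lower and 3 higher) among the 39 and 2457 lower and 2547 higher over all genes. By role, 5 of 5 effectors, 7 of 10 Frizzled receptors, 2 of 5 further receptors and 2 of 19 ligands were called. A fall of 2-fold or more was found in Fzd2 and Fzd3, 2 of the 39, where 1.76% of all genes fell by as much. The E16.5 arrays lay wholly below the E12.5 arrays for 5 genes (Ctnnb1, Fzd1, Fzd2, Fzd3 and Tcf7l2), where 5.4% of all genes did so, and wholly above them for 0, where 4.69% did so. Without E16.5 replicates 1 to 4 the calls were 10, all lower, and without replicates 5 to 8 they were 10, 7 of them lower. Without E12.5 replicates 2 and 3 they were 15, 13 of them lower.

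**Figure D1:**
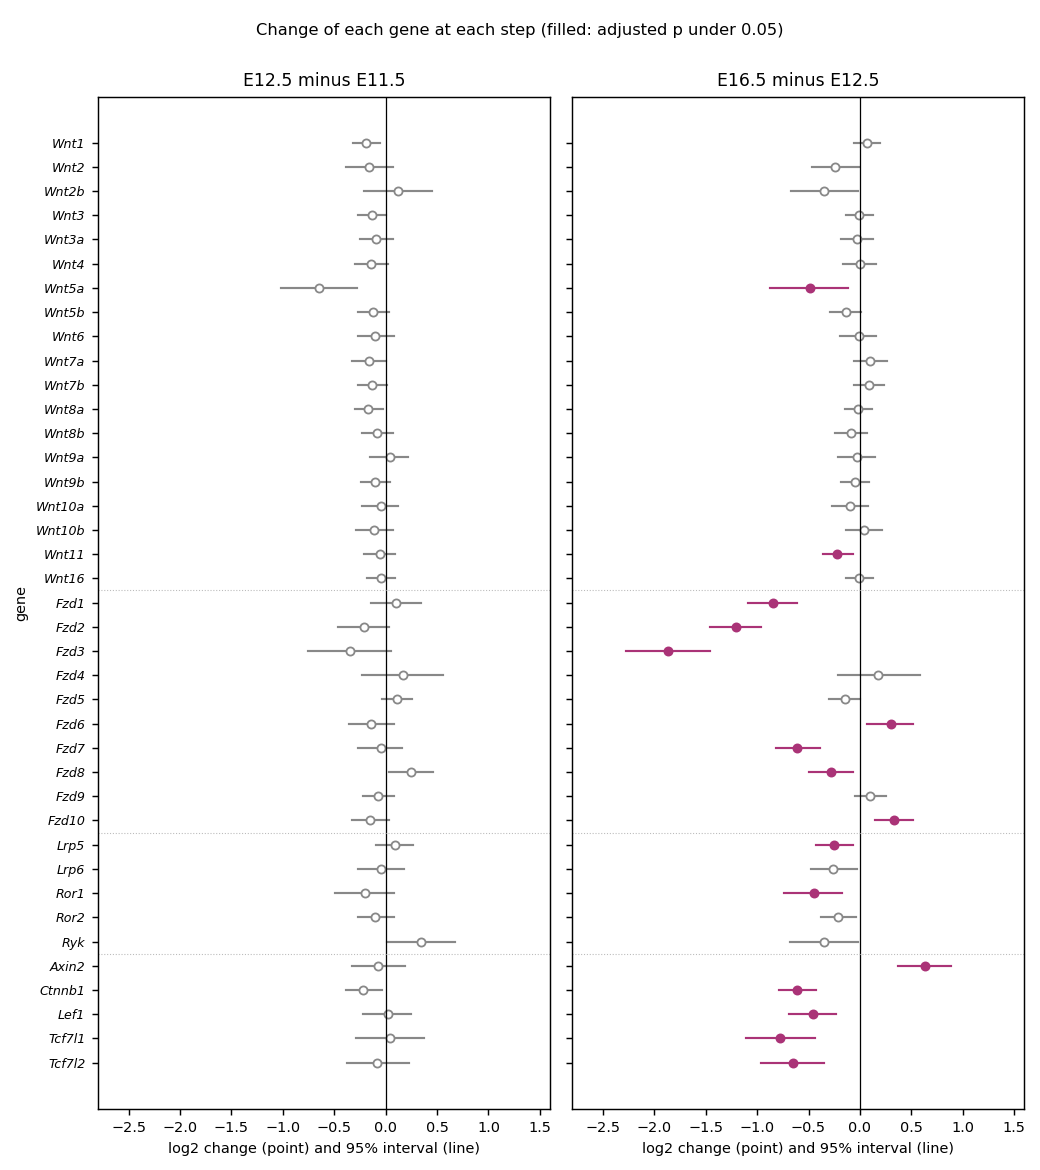
Log2 change of each of the 39 genes, E12.5 minus E11.5 at the left and E16.5 minus E12.5 at the right; points are limma estimates, lines their 95% intervals, and filled points have an adjusted p under 0.05. No point is filled at the left, and at the right Fzd3 (-1.87) and Fzd2 (-1.21) lie farthest below 0 and Axin2 (0.63) farthest above it.

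The Frizzled receptors span the membrane and bind Wnt with a domain outside the cell. Of the 10, 5 were lower at E16.5 than at E12.5, 2 were higher and 3 were not called. Fzd3, known for its part in axon guidance, had a lowest, median and highest value of 9.07, 9.70 and 10.07 in E11.5 folds, 8.96, 9.16 and 9.75 in E12.5 folds and 6.29, 7.65 and 7.95 in E16.5 diaphragm. All E16.5 arrays lay below all fold arrays, and they were also the most scattered of the 3 stages, with replicate 2 at 6.29 and replicate 4 at 6.89. Fzd3 changed by -1.87 ± 0.20 from E12.5 to E16.5 (adjusted p = 5.9e-08), a 3.65-fold fall. Replicate 2 was below the lower quartile of its array, 1 of 8 arrays at E16.5, so the size of this fall is uncertain. With single arrays left out the change ran from -1.95 to -1.71.

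Fzd2, which binds Wnt5a among other ligands, had 9.16, 9.45 and 9.78 in E11.5 folds, 8.76, 9.20 and 9.61 in E12.5 folds and 7.66, 7.97 and 8.43 in E16.5 diaphragm. Again no E16.5 array reached the folds, and the change from E12.5 was -1.21 ± 0.12 (adjusted p = 2.01e-08), a 2.31-fold fall. Fzd1, of the same branch of the family, had 7.98, 8.49 and 8.79 in E16.5 diaphragm, against 9.02, 9.34 and 9.51 in E12.5 folds. The arrays were again apart, and Fzd1 changed by -0.85 ± 0.11 (adjusted p = 2.77e-06). Fzd7, the third member of that branch and a receptor through which Wnt7a acts on mouse muscle stem cells, had 8.61, 8.95 and 9.47 in E16.5 diaphragm, against 9.36, 9.60 and 9.81 in E12.5 folds. Here E16.5 replicate 2, at 9.47, reached into the range of the folds, and the change was -0.61 ± 0.10 (adjusted p = 5.98e-05). Fzd1, Fzd2, Fzd3 and Fzd7 passed in every alternative tried, with each array left out in turn included.

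**Figure D2:**
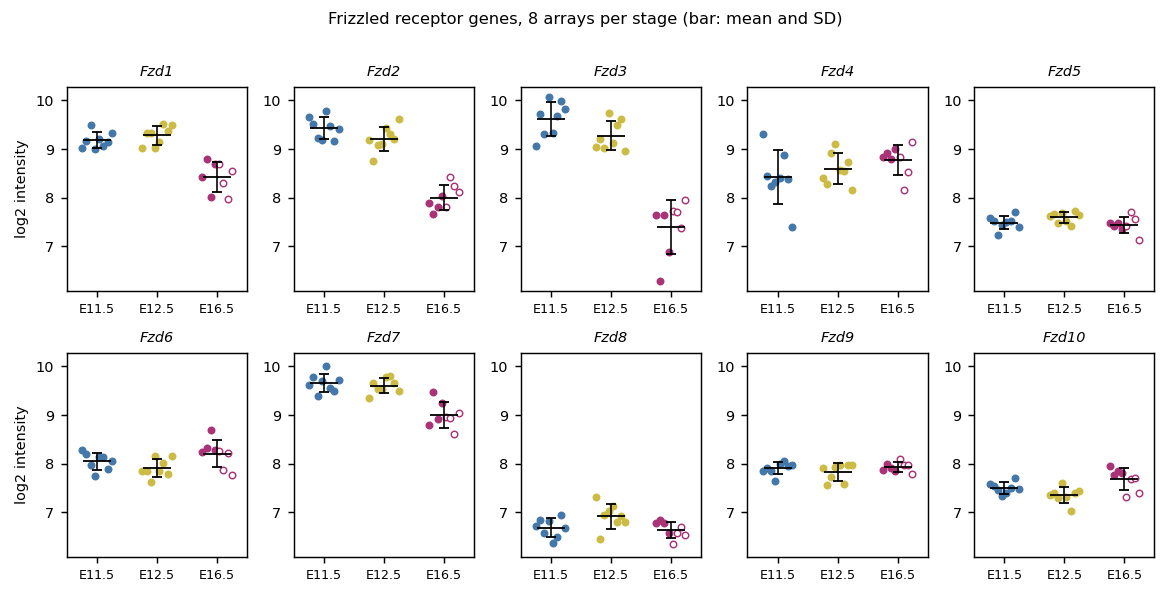
Log2 intensity of the 10 Frizzled genes on each array, by stage; points are arrays, bars the mean and SD of 8 arrays, and open points at E16.5 are replicates 5 to 8. Fzd1, Fzd2, Fzd3 and Fzd7 are lower at E16.5, with means of 8.43, 8.0, 7.41 and 9.0.

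Less of a transcript in such tissue samples can mean fewer cells that make it or less RNA per cell, and these cannot be told apart. The mesenchyme markers moved over the same interval as these receptors: 7 of 12 were lower, 4 higher and 1 not called, with a median log2 change of -0.81. Of the 12 muscle markers 9 were higher and 2 lower, and 9 of 9 hepatocyte markers were higher. Of 10 endothelial markers 8 were higher and 0 lower (median log2 change 0.55). Of 7 red cell markers 3 were lower, the embryonic globins Hba-x (-4.8), Hbb-bh1 (-5.67) and Hbb-y (-4.21), and 0 higher. The other 4 were not called, and the median log2 change of the 7 was -0.14. With these globins included, the median over arrays of the mean of the 7 was 8.54 in E16.5 diaphragm, against 10.49 in E12.5 folds. Of 10 neuron markers 2 were lower, Nefm (-1.84) and Isl1 (-0.47), 0 higher and 8 not called, with a median log2 change of -0.07. The median over arrays of the mean of these 10 was 6.53 in E16.5 diaphragm, against 6.83 in E12.5 folds. Their part in the falls was not tested.

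Fzd10 and Fzd6 were the Frizzled genes that rose. Fzd10 had 7.32, 7.73 and 7.96 in E16.5 diaphragm, against 7.02, 7.37 and 7.61 in E12.5 folds, with overlap, and changed by 0.33 ± 0.09 (adjusted p = 0.00528). Its E16.5 replicates 1 to 4 lay at 7.77 to 7.96 and replicates 5 to 8 at 7.32 to 7.70, and without replicates 1 to 4 the difference was 0.17 (adjusted p = 0.276). Fzd6, which orients hairs in mouse skin, changed by 0.30 ± 0.11 (adjusted p = 0.042). Its difference was 0.12 without E16.5 replicates 1 to 4 (adjusted p = 0.582), and 11 of 24 arrays ended the call when left out alone (adjusted p up to 0.102).

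Fzd8 was lower in E16.5 diaphragm by a small amount (-0.28 ± 0.10, adjusted p = 0.0435). Its medians were 6.71, 6.94 and 6.63 in stage order, close to background, and 10 arrays ended the call when left out alone (adjusted p up to 0.102). Leaving out E16.5 replicates 5 to 8 ended it too (adjusted p = 0.373). Fzd4, the receptor for norrin in vessels, had 8.17, 8.83 and 9.14 in E16.5 diaphragm against 8.17, 8.57 and 9.11 in E12.5 folds and was not called (0.18 ± 0.19). Fzd5 (-0.15 ± 0.07) and Fzd9 (0.10 ± 0.07) were not called either, and the 95% intervals of these 3 genes lay between -0.30 and 0.58.

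Among the 19 ligands, 2 were lower at E16.5 than at E12.5 and 0 higher, which is 10.5%, against the 27.1% of all genes. These 19 include Wnt1, Wnt3, Wnt8a and Wnt8b, below the lower quartile on all arrays of both stages, where a change may be missed. Unadjusted, 4 of the 19 ligands were lower and 0 higher, where the share of all genes was at least the 27.1% that passed after adjustment. Wnt5a had 6.47, 6.86 and 7.02 in E16.5 diaphragm, against 6.76, 7.40 and 7.69 in E12.5 folds. These ranges overlapped, and the change of -0.49 ± 0.18 was close to the threshold (adjusted p = 0.0436): 11 arrays ended the call when left out alone (adjusted p up to 0.0907). Leaving out E16.5 replicates 1 to 4 (adjusted p = 0.116) or 5 to 8 (adjusted p = 0.22) ended it too. Set against E11.5, however, every E16.5 array lay below every E11.5 array. That difference was -1.14 ± 0.18 (adjusted p = 1.95e-05), a 2.21-fold fall, and it passed in every alternative tried. At E16.5 Wnt5a lay near the lower quartile, with 1 of 8 arrays below it, so the size of this fall is uncertain.

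Wnt11, a ligand that orients muscle fibres in the chick, had 7.11, 7.36 and 7.50 in E16.5 diaphragm, against 7.38, 7.54 and 7.79 in E12.5 folds. The ranges overlapped, the change was -0.22 ± 0.07 (adjusted p = 0.0259), and 4 arrays ended the call when left out alone (adjusted p up to 0.0646). Wnt11 was not called without E16.5 replicates 1 to 4 (adjusted p = 0.0548) or 5 to 8 (adjusted p = 0.161) either. The other 17 ligands were not called, with differences from -0.35 (Wnt2b) to 0.10 (Wnt7a) and 95% intervals between -0.67 and 0.26. Wnt2, which with Wnt2b specifies the lung in the mouse, had 6.70, 6.77 and 6.88 in E16.5 diaphragm, against 6.46, 7.08 and 7.57 in E12.5 folds. The folds were widely spread, and the difference of -0.24 ± 0.11 (adjusted p = 0.116) passed without E12.5 replicate 8 (adjusted p = 0.0153) or without E12.5 replicate 3 (adjusted p = 0.046), the lowest arrays of that stage.

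Wnt4, a ligand of kidney and gonad development, had medians of 9.05, 8.94 and 8.93 in stage order and hardly differed between E16.5 and E12.5 (0.00 ± 0.08, 95% interval from -0.16 to 0.16). It is the member with more than 1 probe set; the other one had means of 7.18 ± 0.23, 7.16 ± 0.23 and 7.39 ± 0.37 (SD). Wnt1 and Wnt8b, ligands of the developing brain, lay below the lower quartile in 8 of 8 arrays at every stage, so their transcripts were not told from background. Wnt3 and Wnt8a were below it in 8 of 8 arrays at E12.5 and again at E16.5, and Wnt7a in 4, 5 and 6 arrays in stage order.

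Wnt2b, the relative of Wnt2, had 7.29, 7.57 and 7.91 in E16.5 diaphragm, against 7.66, 7.90 and 8.33 in E12.5 folds, with overlap (-0.35 ± 0.16, adjusted p = 0.114); it passed when only these stages were fitted (adjusted p = 0.0202). Wnt5b had 7.76, 7.96 and 8.16 in E16.5 diaphragm, against 8.01, 8.07 and 8.22 in E12.5 folds (-0.14 ± 0.07, adjusted p = 0.181). The remaining ligands, Wnt3a, Wnt6, Wnt7b, Wnt9a, Wnt9b, Wnt10a, Wnt10b and Wnt16, differed by -0.10 (Wnt10a) to 0.09 (Wnt7b) between E16.5 and E12.5, and their ranges overlapped.

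**Figure D3:**
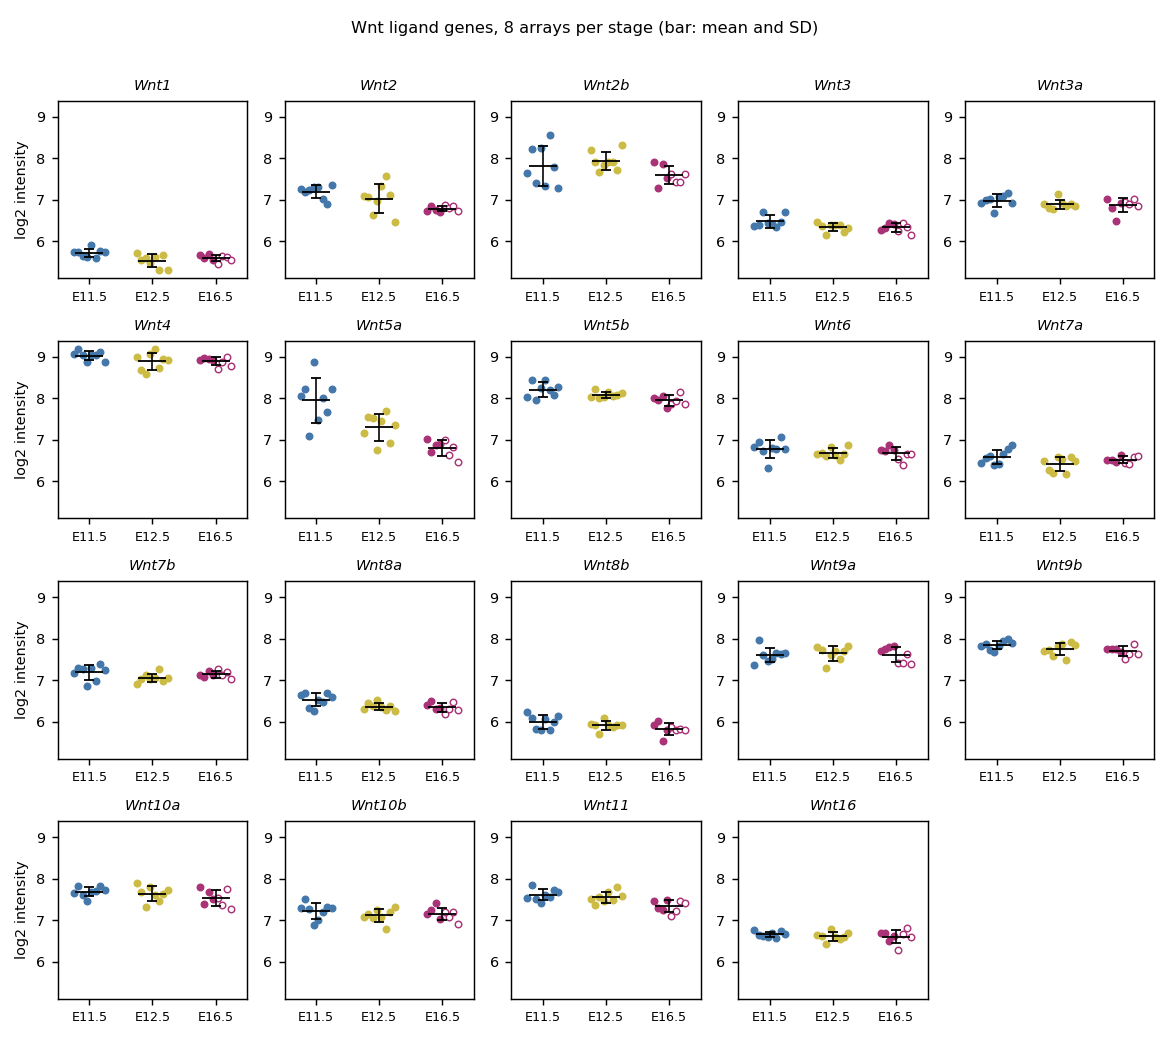
Log2 intensity of the 19 Wnt ligand genes on each array, by stage, with the mean and SD of 8 arrays; open points at E16.5 are replicates 5 to 8. Wnt5a has means of 7.95, 7.30 and 6.81 in stage order, and most other ligands lie nearly level.

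Several ligand genes are neighbours in the mouse genome. In the gene order of the RefSeq annotation (assembly GRCm38.p6), Wnt6 is next to Wnt10a, Wnt3a to Wnt9a, Wnt9b to Wnt3, and Wnt10b to Wnt1 among protein-coding genes. None of these 8 genes was called in the 3 comparisons. Wnt3 (-0.14 ± 0.07, adjusted p = 0.1) and Wnt9b (-0.15 ± 0.07, adjusted p = 0.101) came nearest, both in E16.5 against E11.5, and Wnt9b passed after quantile normalization (adjusted p = 0.0237) or centring on the median (adjusted p = 0.0343).

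Of the co-receptors and alternative receptors, 2 of 5 were called, both lower. Ror1, a receptor kinase of the Wnt5a branch, had 7.49, 8.07 and 8.50 in E16.5 diaphragm, against 8.26, 8.40 and 8.65 in E12.5 folds, and changed by -0.45 ± 0.14 (adjusted p = 0.0152). The lowest values were in E16.5 replicates 5 to 8 (7.49 to 8.09, against 8.04 to 8.50 in replicates 1 to 4). The difference was -0.21 without replicates 5 to 8 (adjusted p = 0.36) and -0.70 without replicates 1 to 4. Lrp5, a co-receptor with a large part in bone, had 8.08, 8.24 and 8.43 in E16.5 diaphragm, against 8.21, 8.45 and 8.77 in E12.5 folds. It changed by -0.25 ± 0.09 (adjusted p = 0.0362), and 7 arrays ended the call when left out alone (adjusted p up to 0.0844). Of 13 other alternatives 6 also ended it. Among these were leaving out E16.5 replicates 1 to 4 (adjusted p = 0.11) and 5 to 8 (adjusted p = 0.176).

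Lrp6, the co-receptor of most embryonic Wnt signalling, differed by -0.26 ± 0.11 (adjusted p = 0.0854) and passed without E12.5 replicate 4 (adjusted p = 0.0169) or E11.5 replicate 8 (adjusted p = 0.038). Ror2, the kinase related to Ror1, differed by -0.21 ± 0.08 (adjusted p = 0.0696) and reached the threshold when E11.5 replicate 7 (adjusted p = 0.0289) or 4 (adjusted p = 0.0372) was left out. Ryk, a receptor whose kinase domain is inactive, differed by -0.35 ± 0.16 (adjusted p = 0.11) and passed without E11.5 replicate 1 (adjusted p = 0.00826), which at 8.14 lay far below its stage. Arrays of E11.5 enter these values through the spread that all stages share in the fit. When only E16.5 and E12.5 were fitted, Lrp6 (adjusted p = 0.0428), Ror2 (adjusted p = 0.0199) and Ryk (adjusted p = 0.00345) were all called lower. With array weights they were called too (adjusted p = 0.0279 for Lrp6, 0.0164 for Ror2 and 0.029 for Ryk).

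All 5 effectors were called, 4 lower and 1 higher at E16.5. Ctnnb1 encodes beta-catenin, a protein of cell junctions as well as of the signal. It had 10.96, 11.25 and 11.64 in E11.5 folds, 10.89, 11.06 and 11.18 in E12.5 folds and 10.15, 10.46 and 10.64 in E16.5 diaphragm. No E16.5 array reached the folds, and the change from E12.5 was -0.61 ± 0.09 (adjusted p = 4.48e-06), a 1.53-fold fall. Tcf7l2, a DNA-binding partner of beta-catenin that connective tissue cells of muscle are known to express, had 9.64, 9.91 and 10.11 in E16.5 diaphragm, against 10.21, 10.61 and 10.70 in E12.5 folds. These stages did not overlap either, and Tcf7l2 changed by -0.65 ± 0.15 (adjusted p = 0.00142). Tcf7l1, the family member known mainly as a repressor, had 7.99, 8.18 and 8.74 in E16.5 diaphragm, against 8.36, 9.09 and 9.42 in E12.5 folds. Its ranges overlapped, with a change of -0.78 ± 0.16 (adjusted p = 0.00059). Ctnnb1, Tcf7l1 and Tcf7l2 passed in every alternative tried.

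Lef1, a partner of beta-catenin that is also its target in many tissues, had 7.0, 7.30 and 7.59 in E16.5 diaphragm, against 7.29, 7.76 and 8.31 in E12.5 folds, and changed by -0.46 ± 0.11 (adjusted p = 0.00295). Its lowest values were in E16.5 replicates 5 to 8 (7.0 to 7.27, against 7.32 to 7.59 in replicates 1 to 4), and without them the difference was -0.34 (adjusted p = 0.0888). Axin2, the feedback inhibitor whose transcript is widely used to read the beta-catenin signal, was the effector that rose. It had 7.95, 8.19 and 8.68 in E11.5 folds, 7.86, 8.17 and 8.51 in E12.5 folds and 8.39, 8.77 and 9.12 in E16.5 diaphragm. The change from E12.5 was 0.63 ± 0.13 (adjusted p = 0.000422), a 1.55-fold rise, and it passed with each array left out in turn.

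The Axin2 values at E16.5 fell into separate sets. Replicates 1 to 4 had 9.0, 9.08, 9.09 and 9.12, above every fold array, while replicates 5 to 8 had 8.39, 8.46, 8.49 and 8.55, within the range of the E11.5 arrays. Without replicates 1 to 4 the difference was 0.33 from E12.5 (adjusted p = 0.0727) and 0.26 from E11.5 (adjusted p = 0.141). Without replicates 5 to 8 the difference from E11.5 was 0.86. Of the 39 genes, 5 had replicates 1 to 4 wholly above 5 to 8 (Axin2, Fzd10, Lef1, Wnt6 and Wnt9a) and 1 wholly below (Ryk), where 6.43% and 5.14% of all genes did, 11.6% in all. The labels do not say what separates these arrays. Marker lists moved with them: the mean of 10 endothelial markers was 9.0 to 9.34 in replicates 1 to 4 and 8.29 to 8.65 in replicates 5 to 8, that of the muscle markers 12.01 to 12.16 and 11.73 to 11.91, and that of 7 red cell markers 7.77 to 8.51 and 8.57 to 9.32. Their part in the Axin2 values was not tested.

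**Figure D4:**
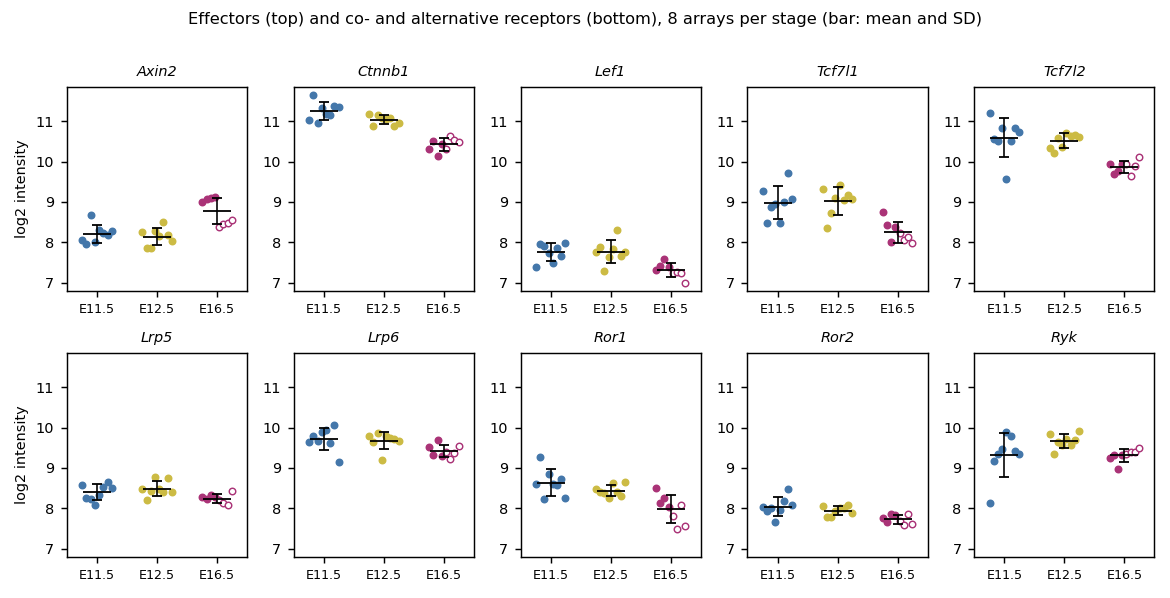
Log2 intensity of the 5 effectors (top) and the 5 co- and alternative receptors (bottom) on each array, by stage, with the mean and SD of 8 arrays; open points at E16.5 are replicates 5 to 8. The filled Axin2 points at E16.5 (9.0 to 9.12) lie above the open ones (8.39 to 8.55), and Ctnnb1 (mean 10.42) and Tcf7l2 (mean 9.86) lie below all E12.5 arrays.

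Promoters are shown for Axin2, which rose, and for Fzd7, Tcf7l2 and Wnt11, which fell, because Tcf and Lef factors act on target genes through short words of sequence. The stretch is the 250 bases before a RefSeq start on GRCm38.p6, read along the gene's strand, for Axin2 (chr11:108920099-108920348, plus strand), Fzd7 (chr1:59481897-59482146, plus strand), Tcf7l2 (chr19:55741560-55741809, plus strand) and Wnt11 (chr7:98834862-98835111, plus strand), with the first listed start taken for Tcf7l2 and Wnt11. Capitals mark any of the words CTTTGAA or CTTTGAT or CTTTGTA or CTTTGTT, searched on both strands.
Axin2: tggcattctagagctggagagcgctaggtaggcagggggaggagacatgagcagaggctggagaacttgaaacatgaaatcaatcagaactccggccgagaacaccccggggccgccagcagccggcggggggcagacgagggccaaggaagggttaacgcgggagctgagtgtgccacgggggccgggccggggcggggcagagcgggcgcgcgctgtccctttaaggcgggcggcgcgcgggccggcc
Fzd7: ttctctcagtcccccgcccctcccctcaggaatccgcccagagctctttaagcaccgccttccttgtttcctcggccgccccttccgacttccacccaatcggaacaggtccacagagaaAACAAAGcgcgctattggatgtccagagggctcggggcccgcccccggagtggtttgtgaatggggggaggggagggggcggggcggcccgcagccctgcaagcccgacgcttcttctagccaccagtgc
Tcf7l2: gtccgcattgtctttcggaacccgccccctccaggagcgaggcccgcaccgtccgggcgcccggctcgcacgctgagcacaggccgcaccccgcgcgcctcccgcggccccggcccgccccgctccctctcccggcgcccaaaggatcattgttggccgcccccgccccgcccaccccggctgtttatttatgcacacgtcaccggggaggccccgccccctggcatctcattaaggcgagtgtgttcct
Wnt11: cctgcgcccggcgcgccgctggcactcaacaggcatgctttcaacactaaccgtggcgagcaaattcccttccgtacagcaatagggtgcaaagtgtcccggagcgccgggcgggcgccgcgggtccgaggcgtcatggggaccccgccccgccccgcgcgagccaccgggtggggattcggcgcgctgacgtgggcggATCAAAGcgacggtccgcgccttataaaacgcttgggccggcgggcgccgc
Fzd7 held 1 match on the opposite strand, its first base 130 bases before the start, and Wnt11 held 1, also on the opposite strand, 51 bases before it. The Axin2 and Tcf7l2 stretches held none, which says only that these letters are not in these windows. RefSeq's table held 37 such windows for 29 of the 39 genes, and none for Fzd2, Fzd3 or Wnt5a. Of the 37, 5 (13.5%) held a match, in Fzd7, Lef1, Tcf7l2 (at another start), Wnt5b and Wnt11. Over all 32851 windows in the table the share was 14.8%. The genes shown that fell are all among those with a match, while the windows of Ctnnb1, Fzd1, Ror1 and Tcf7l1, which also fell, held none. The windows of the Wnt genes had a median G and C content of 70.8%, against 52.4% over all windows. The shares of 13.5% and 14.8% thus come from windows of unlike composition. They cannot show whether matches are more or less frequent in the Wnt genes.

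Over the whole interval, E16.5 against E11.5, 17 of the 39 genes were called, 16 lower and 1 higher, where 33.5% of all genes were called, 19.6% lower and 13.8% higher. This comparison shares arrays with both others. By role, 5 of 5 effectors, 4 of 10 Frizzled receptors, 3 of 5 further receptors and 5 of 19 ligands were called. The E16.5 arrays lay wholly below the E11.5 arrays for 6 genes (Ctnnb1, Fzd1, Fzd2, Fzd3, Wnt2 and Wnt5a), where 3.86% of all genes did so, and wholly above them for 0, where 5.22% did so. Fzd3 (-2.22 ± 0.20), Fzd2 (-1.42 ± 0.12) and Wnt5a fell by 2-fold or more, 3 of the 39, where 1.95% of all genes fell by as much. Axin2 was the gene that rose (0.56 ± 0.13, adjusted p = 0.00117). Without E16.5 replicates 1 to 4 the calls were 13, all lower. Without replicates 5 to 8 they were 15, 12 lower and 3 higher, Fzd10 (0.35, adjusted p = 0.00506) and Fzd6 (0.33, adjusted p = 0.0312) being higher beside Axin2. Without E12.5 replicates 2 and 3, 16 lower and 1 higher were called.

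The remaining receptors and effectors called against E11.5 were Ctnnb1 (-0.83 ± 0.09), Fzd1 (-0.75 ± 0.11), Tcf7l1 (-0.74 ± 0.16), Tcf7l2 (-0.73 ± 0.15), Fzd7 (-0.66 ± 0.10), Ror1 (-0.65 ± 0.14), Lef1 (-0.44 ± 0.11), Ror2 (-0.31 ± 0.08) and Lrp6 (-0.30 ± 0.11). Without E16.5 replicates 5 to 8, Lef1 (adjusted p = 0.096), Ror2 (adjusted p = 0.0769) and Lrp6 (adjusted p = 0.176) were not called. Lrp6 was near the threshold with all arrays (adjusted p = 0.0329) and was not called without replicates 1 to 4 either (adjusted p = 0.0814), and 8 arrays ended its call when left out alone (adjusted p up to 0.0758). Among the ligands, Wnt2 had 6.70, 6.77 and 6.88 in E16.5 diaphragm, against 6.90, 7.24 and 7.35 in E11.5 folds, and changed by -0.40 ± 0.11 (adjusted p = 0.00674). Its arrays did not overlap, and it was not called without E16.5 replicates 1 to 4 (-0.38, adjusted p = 0.077). Wnt11 changed by -0.27 ± 0.07 and Wnt5b, the close relative of Wnt5a, by -0.26 ± 0.07 (adjusted p = 0.00762). Wnt8a also passed (-0.18 ± 0.07, adjusted p = 0.0373), but its E16.5 arrays were all below the lower quartile, and 10 arrays ended the call when left out alone (adjusted p up to 0.0794), as did leaving out E16.5 replicates 1 to 4 (adjusted p = 0.0719) or 5 to 8 (adjusted p = 0.21).

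The other 22 genes were not called between E16.5 and E11.5, with 95% intervals between -0.55 and 0.75. Fzd4 differed by 0.35 ± 0.19 (adjusted p = 0.166) and passed without E11.5 replicate 1 (adjusted p = 0.0401). Fzd10 differed by 0.18 ± 0.09 (adjusted p = 0.11) and passed without E16.5 replicate 5 (adjusted p = 0.0308) or 8 (adjusted p = 0.0498). Wnt8b, at background, passed without E11.5 replicate 4 (adjusted p = 0.0444; 0.0851 with all arrays).

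Around these genes stand the other parts of the pathway, 112 measured of 114 listed. From E11.5 to E12.5, 2 of them were called, Rspo3 and Myc, both higher, where 0.388% of all genes were called. Rspo3, a secreted protein that raises the response to Wnt, had 8.19, 9.28 and 9.99 in E12.5 folds, against 6.56, 7.51 and 8.82 in E11.5 folds (1.58 ± 0.24, adjusted p = 0.00282). Myc, a growth regulator and target of beta-catenin, changed by 0.62 ± 0.13 (adjusted p = 0.0285). Single calls among these 112 genes were not followed through the alternatives. Over all genes, the 75 calls of this comparison became 9 when only those stages were fitted. From E12.5 to E16.5, 38 were lower, 14 higher and 60 not called, with a median log2 change of -0.10, where 27.1% of all genes were called, 15.6% lower, with a median of -0.02.

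Of 16 nuclear partners and repressors, 10 were lower and 1 higher at E16.5 than at E12.5, with a median log2 change of -0.33. Bcl9, which ties beta-catenin to its co-activators, had 8.82, 9.24 and 9.87 in E16.5 diaphragm, against 10.07, 10.76 and 11.09 in E12.5 folds (-1.45 ± 0.14, adjusted p = 1.62e-08). Those arrays did not overlap. Tle3, a co-repressor, changed by -0.93 ± 0.10 and Hdac1, a histone deacetylase, by -0.89 ± 0.10, while Ctnnbip1, which keeps beta-catenin from Tcf factors, rose by 0.29 ± 0.10. Of 21 genes of the destruction complex and cytoplasmic relay, 7 were lower and 3 higher (median -0.25). Tnks, which marks Axin for breakdown, changed by -0.65 ± 0.08, and Dvl3, the adaptor below Frizzled, by -0.61 ± 0.11, whereas the related Dvl1 changed by 0.44 ± 0.13.

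Of 28 surface and secreted modulators, 8 were lower and 4 higher (median log2 change -0.01). Sfrp1, a decoy that binds Wnt, had 8.28, 8.93 and 9.59 in E16.5 diaphragm, against 10.54, 10.86 and 11.01 in E12.5 folds (-1.97 ± 0.15, adjusted p = 2.03e-10), with no overlap. Frzb, a decoy of the same family, had 7.32, 9.02 and 10.22 in E16.5 diaphragm, against 6.10, 6.61 and 7.83 in E12.5 folds (2.17 ± 0.35, adjusted p = 3.28e-05), and 4 of its 8 E12.5 arrays were at background. The surface proteoglycans Gpc3 (-1.32 ± 0.08) and Gpc4 (1.86 ± 0.18) also moved in opposite directions, and Rspo3 was lower at E16.5 than at E12.5 (-0.82 ± 0.24, adjusted p = 0.0124).

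Of 31 genes of the planar polarity and calcium branches, 8 were lower and 5 higher (median log2 change -0.11). Daam2, a regulator of actin downstream of Dvl, changed by -1.50 ± 0.15 and Dchs1, a large cadherin of tissue polarity, by -1.09 ± 0.11. The rises were led by Camk2b (1.35 ± 0.14), Camk2d (1.27 ± 0.20) and Camk2a (1.09 ± 0.09), kinases that muscle and nerve use for calcium signals of many kinds. Of 18 genes often read as targets of beta-catenin, 6 were lower and 1 higher, with a median log2 change of 0.00: Myc changed by -1.18 ± 0.13, Id2 by -1.17 ± 0.23 and Lgr5, a receptor for R-spondins, by -0.81 ± 0.16. Notum, an enzyme that strips the lipid from Wnt, was the target that rose, with 7.31, 7.81 and 8.12 in E16.5 diaphragm against 7.11, 7.33 and 7.47 in E12.5 folds (0.45 ± 0.11, adjusted p = 0.00217). Notum was also placed in the list of 3 Wnt secretion genes, and the other 2 genes of that list were not called.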

How the data were processed

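Per the submitters' processing notes, RMA, R 2.9.2 and Affymetrix Expression Console 1.1 were used; their roles are not given. The authors deposited 1 log2 intensity per probe set and array. The log2 scale was read from the range (2.56 to 14.12), and whether all 24 arrays were normalized together is not given in the sources used here. Of 24200 probe sets, 20760 name 1 gene symbol; 1140 with several symbols and 2300 with no listed gene were left out. Of several probe sets for a gene (804 genes) the brightest on average was kept. Stages were compared with limma 3.58.1 in R 4.3.3 on all 24 arrays, with 1 coefficient per stage, two-sided tests, Benjamini-Hochberg adjustment over 19351 genes and a threshold of 0.05; the fit was tested on simulated data. Changes carry SE. Arrays have no read depth, so their number limits the precision.

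The members, gene lists and alternatives were chosen with earlier results of these data known. All members are named and, of each other list, up to 3 called genes per direction. Alternatives were fits of the compared stages alone, a replicate block, other scalings, filters on dim genes, means over probe sets, other moderation, array weights, and arrays left out. Python 3.11.15, pandas 2.3.3 and matplotlib 3.10.9 made tables and figures.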

Additional observations from a re-analysis of the deposited data

Results flagged for a closer look

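For each gene and stage, the highest and the lowest of the 8 arrays were compared with the rest by Dixon's ratio of the gap to the range. It exceeded its critical value in 8 of 117 combinations; chance alone gives about 1 in 20. Ryk had 8.14 in E11.5 replicate 1, against 9.16 to 9.90 in the others, and 8.97 in E16.5 replicate 3, against 9.25 to 9.49 in the others. Lrp6 had 9.19 in E12.5 replicate 4, against 9.64 to 9.86 in the others. Tcf7l2 had 9.56 in E11.5 replicate 5, against 10.50 to 11.21 in the others. Wnt3a had 7.13 in E12.5 replicate 4, against 6.78 to 6.93 in the others, and 6.49 in E16.5 replicate 3, against 6.79 to 7.03 in the others. Wnt6 had 6.33 in E11.5 replicate 4, against 6.73 to 7.07 in the others. Wnt8b, below the lower quartile on every array, had 5.54 in E16.5 replicate 3, against 5.79 to 6.01 in the others. Leaving the array out changed a call for Ryk (E11.5 replicate 1) and for Lrp6 (E12.5 replicate 4), both to a fall from E12.5 to E16.5.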

How the results depend on the processing

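Under the alternatives no called change of a Wnt gene turned its direction; over genes, comparisons and alternatives, 97 values lost their call, 24 gained one and 4145 did neither. From E12.5 to E16.5, 7 of the 16 calls were made in every alternative and 11 with each array left out; for E16.5 against E11.5 these numbers were 11 and 15 of 17. The 16 calls became 10 without E16.5 replicates 1 to 4 and 10 without replicates 5 to 8. With single arrays left out, 0 to 1 Wnt genes were called for E12.5 against E11.5, 11 to 17 for E16.5 against E12.5 and 15 to 17 for E16.5 against E11.5. Over all genes, the 75 calls between E12.5 and E11.5 became 9 when only those stages were fitted, 43 with the replicate block, 49 after quantile normalization, 120 with array weights, 32 and 34 without E16.5 replicates 1 to 4 or 5 to 8, and 26 to 151 with single arrays left out; the cause was not tested. Over all genes, E16.5 against E12.5 had 3479 calls without E16.5 replicates 1 to 4 and 4918 without replicates 5 to 8 (5241 with all arrays), and E16.5 against E11.5 had 4265 and 5481 (6479 with all arrays); the cause was not tested. Equal replicate numbers did not pair the arrays: deviations from the stage means correlated over 0.1 in 0 of 24 pairs (range -0.281 to 0.093), and 2 of 24 arrays correlated best with their own number. With the replicate block 0, 12 and 17 Wnt genes were called in the 3 comparisons. Leaving out the dimmest 25% of genes left 34 Wnt genes, and the dimmest 50% left 23. Signals near the lower quartile limit what can be said of Fzd8, Wnt1, Wnt3, Wnt6, Wnt7a, Wnt8a, Wnt8b and Wnt16. The same holds for Wnt2, Wnt3a and Wnt5a at E16.5, and for Fzd3 in E16.5 replicate 2.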
